A study of Homo sapiens with 12 samples.

Results

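Transcript levels of 35 genes of the peroxisome were followed in CAOV3 cells, a human line established from a high-grade serous carcinoma of the ovary. The genes were taken by symbol from a named list: 13 peroxins, 3 transporters of the ABCD family, 14 enzymes of peroxisomal oxidation, and 5 genes of ether lipid synthesis and protein processing. All 35 were among the 19677 genes of the count tables, and 34 had counts high enough to be tested. The remaining gene was PEX11G, a relative of the organelle division factor PEX11A, with 2 to 11 counts per library. Bulk RNA was sequenced from 12 libraries in 4 groups of 3 replicates. Control cells carried the label DMSO, ascites cells received 10% ovarian cancer ascites with DMSO, bezafibrate cells received 200 uM bezafibrate, and combination cells received ascites and bezafibrate together. All cells were wild type and grew in DMEM with 10% fetal bovine serum. Exposure lasted 16 hours in the treated groups, and the labels list no time for the controls. DMSO appears in the labels of control and ascites cells and not in those of drug-treated cells, so a difference in solvent and the drug itself cannot be told apart. The comparisons asked how the drug and the fluid, alone and together, moved the peroxins, the transporters and the oxidation enzymes.

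Peroxisomes are small organelles bounded by a single membrane that shorten very long and branched fatty acids, make the early intermediates of ether lipids, and break down the hydrogen peroxide that their oxidases release. Peroxins insert the membrane proteins, import folded matrix enzymes with the help of soluble receptors, recycle those receptors and divide the organelle. Bezafibrate is a fibrate, a lipid-lowering drug that activates the PPAR family of nuclear receptors. In rodent liver, PPAR alpha agonists are known to multiply peroxisomes and to raise the genes of peroxisomal oxidation, and human cells are known to respond less. Ascites builds up in the abdomen of patients with ovarian cancer and is rich in lipids and proteins.

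Total counts per library ran from 11831093 to 18762759. Over the 12470 genes tested, 37.0% of the variance lay on the leading principal component, which set drug-treated and other libraries apart. On the next component, with 9.88% of the variance, combination replicate 3 lay at -22.4 and the other libraries between -4.37 and 9.84. The known fibrate targets PDK4, ANGPTL4 and PLIN2 rose with the drug by 4.07, 3.60 and 2.73 on the log2 scale against control. The 8 epithelial and serous markers summed to 5562 to 5666 CPM (counts relative to library size, the unit edgeR gives) in control, 5724 to 5871 with ascites, 5719 to 5979 with bezafibrate and 6171 to 6236 with both. EPCAM, KRT7, KRT8, KRT18 and CDH1 were expressed, and CDH1 and KRT7 were called higher with the drug, by 1.51 and 0.55 on the log2 scale against control and 1.69 and 0.57 with ascites present. By contrast, 3 genes used to identify serous ovarian carcinoma were at or near 0: PAX8 at no more than 1.27 CPM, and MUC16 and WT1 below it. Of 6 leukocyte markers, 5 were at 0 in every library, and CD68 made up the whole summed level of 70.8 to 74.8 CPM in control, 73.4 to 80.7 with ascites, 87.8 to 93.0 with bezafibrate and 90.3 to 98.1 with both. The platelet markers PPBP, PF4 and GP9 were at 0, and the 6 erythrocyte and platelet markers together reached at most 1.41 CPM. The 7 fibroblast and mesothelial markers, mostly LUM, summed to 192.8 to 197.8 CPM in control, 186.9 to 193.8 with ascites, 167.9 to 178.6 with bezafibrate and 161.5 to 178.6 with both. CD68 was called higher and LUM lower in both drug comparisons. Other markers also differed in mean CPM. COL1A1 went from 6.23 to 3.89 against control and from 5.66 to 3.46 with ascites present. COL3A1 went from 3.90 to 2.36 and from 5.06 to 2.55, and UPK3B rose from 0.168 to 0.450 and from 0.146 to 0.630. KRT8 went from 3005 to 2914 and from 3129 to 3082, and KRT18 from 1784 to 1720 and from 1838 to 1845. The part of the markers in the results was not tested.

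Bezafibrate raised catalase, a run of beta-oxidation enzymes, the fatty acid transporter ABCD3, the ether lipid enzyme AGPS and a few peroxins, and the sizes were modest. Against control, 12 of the 34 tested members were higher and 1 was lower by edgeR's quasi-likelihood test at an adjusted p under 0.05, which is 35.3% and 2.94% of the members. Of all 12470 genes tested, 17.6% were called in this comparison, 10.1% as higher and 7.55% as lower. In the presence of ascites, where the combination is set against ascites alone and no library is shared with the first comparison, 8 members were higher and none was lower. There, 17.8% of all genes were called, 10.5% higher and 7.29% lower. CAT, HSD17B4, ECH1, ACAA1, PEX19, AGPS, PEX13 and ABCD3 were higher in both comparisons, which is 23.5% of the members beside 7.95% of all genes. The median log2 change of the members was 0.09 without ascites and 0.12 with it, where the median of all genes was -0.00 in both. In bulk RNA a smaller share of some cells and less RNA per cell cannot be told apart. The labels do not say whether replicates came from separate cultures or days, so p values measure the spread between these libraries, which may be technical.

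**Figure D1:**
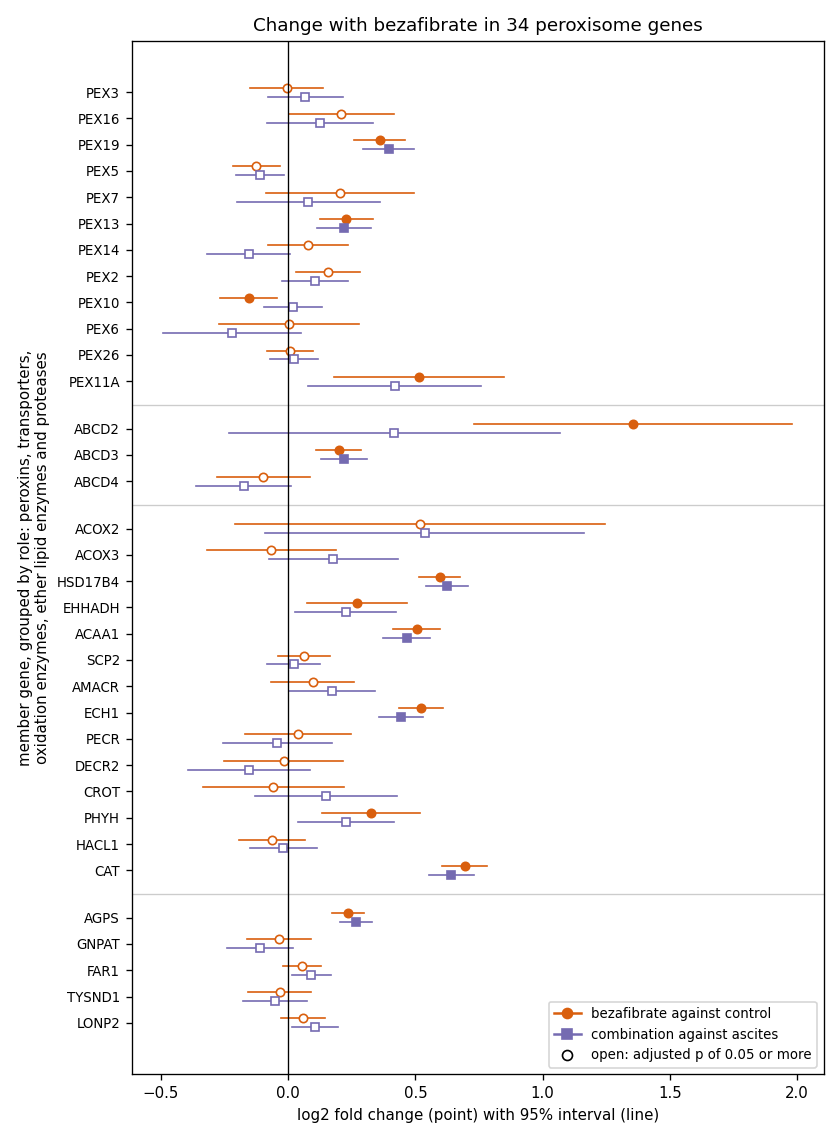
Log2 fold changes of the 34 tested genes (points) with 95% intervals (lines) on the x axis, for bezafibrate against control (orange circles) and the combination against ascites (purple squares). Genes are listed on the y axis by role, and filled symbols mark an adjusted p under 0.05. Filled symbols lie to the right of 0 except PEX10, at -0.15.

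The genes with the clearest response lay among the oxidation enzymes, of which 6 of 14 were higher against control (42.9%, beside 10.1% of all genes) and 4 of 14 in the presence of ascites (28.6%, beside 10.5%). Catalase, encoded by CAT (chr11:34438934-34472060, GRCh38.p14), splits hydrogen peroxide into water and oxygen inside the organelle. CAT stood at 78.3, 79.6 and 72.5 CPM in the control libraries (replicates 1 to 3 in order, scaled by TMM library size), 77.4, 77.8 and 76.8 with ascites, 123, 127 and 123 with bezafibrate and 122, 114 and 125 with both. Every library with the drug lay above every library without it, and the control and ascites libraries overlapped. The log2 change was 0.69 (SE 0.0432, edgeR adjusted p 1.25e-15), or 1.62-fold, against control and 0.64 (SE 0.0440, adjusted p 1.8e-14), or 1.56-fold, with ascites present.

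HSD17B4 (chr5:119452497-119542332) encodes the D-bifunctional protein, which carries out the hydration and dehydrogenation steps for very long and branched chains. HSD17B4 stood at 119, 129.9 and 119 CPM in the control libraries, 116, 118 and 122 with ascites, 192, 181 and 183 with bezafibrate and 181, 176 and 190.1 with both. The drug and no-drug libraries did not overlap. HSD17B4 rose by 0.59 (SE 0.0398, edgeR adjusted p 9.18e-15) without ascites and by 0.62 (SE 0.0406, adjusted p 4.51e-15) with it. ECH1 (chr19:38815422-38831794) encodes an isomerase that moves double bonds of unsaturated chains into a position that beta-oxidation can use, in peroxisomes and mitochondria. ECH1 stood at 143, 144 and 140.5 CPM in the control libraries, 155, 148 and 140.1 with ascites, 207, 206 and 201 with bezafibrate and 217, 197 and 186 with both. Combination replicate 3 was the lowest of the drug libraries and still above all 6 libraries without the drug. Its log2 changes were 0.52 (SE 0.0425, edgeR adjusted p 8.55e-12) and 0.44 (SE 0.0430, adjusted p 4.72e-10). ACAA1 (chr3:38122715-38137127) encodes the thiolase that makes the final cut of the cycle. ACAA1 stood at 70.9, 67.5 and 68.1 CPM in the control libraries, 73.5, 73.8 and 71.3 with ascites, 96.7, 95.02 and 102 with bezafibrate and 105, 102 and 94.2 with both. Here too the libraries with and without the drug were fully apart, by 0.50 (SE 0.0460, edgeR adjusted p 3.38e-11) and 0.47 (SE 0.0463, adjusted p 3.01e-10) on the log2 scale.

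**Figure D2:**
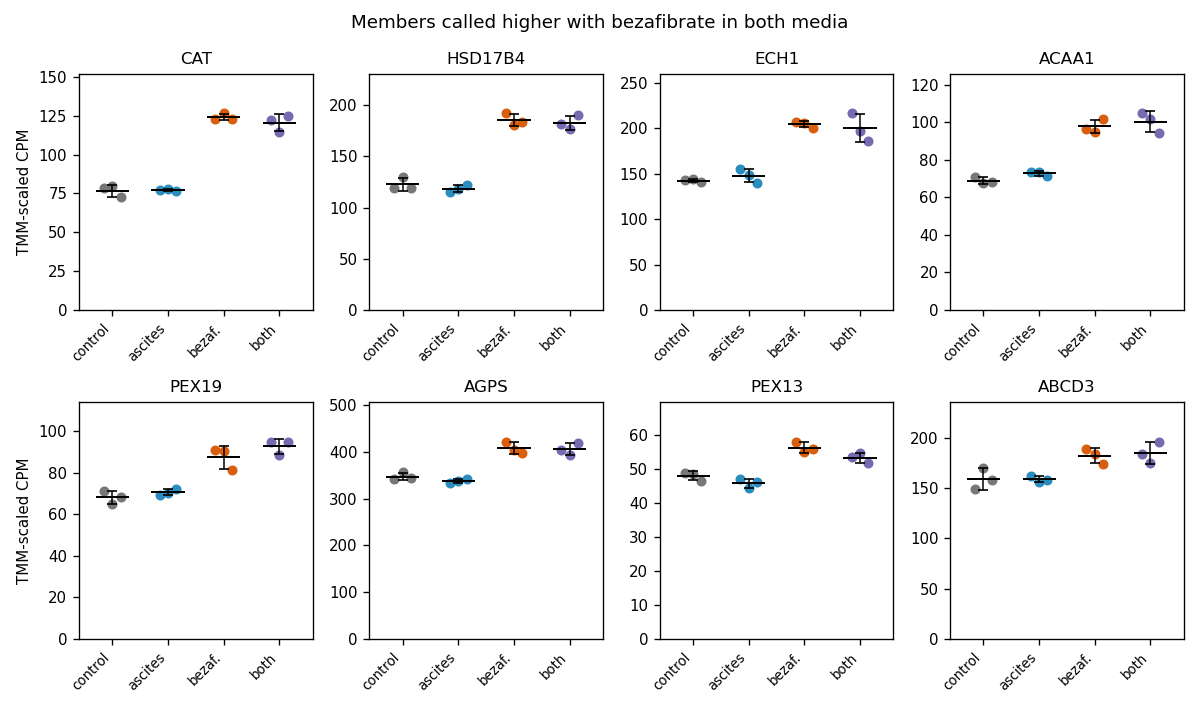
TMM-scaled CPM of the 8 genes called higher with bezafibrate in both media, 1 panel per gene, with the 4 groups on the x axis. Dots are the 3 libraries of a group, and bars give the mean and SD. In CAT the drug libraries sit between 114 and 127 CPM and the others between 72.5 and 79.6.

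The other enzymes of the spiral were not all called. EHHADH, the L-bifunctional protein, is the classic fibrate-induced enzyme of rodent liver. The log2 changes of EHHADH were near those of ABCD3 and PEX13, given below, with a larger SE against control. EHHADH stood at 14.2, 17.9 and 12.8 CPM in the control libraries, 16.4, 13.8 and 17.1 with ascites, 17.96, 18.8 and 17.5 with bezafibrate and 18.1, 17.8 and 19.7 with both. Control replicate 2 lay within the range of the bezafibrate libraries, so bezafibrate and control overlapped. The combination libraries all lay above the ascites libraries. EHHADH was higher by 0.27 (SE 0.0966, edgeR adjusted p 0.0465) against control, and its value with ascites present was 0.23 (adjusted p 0.115). The call against control was lost without control replicate 1 (adjusted p 0.187) or 3 (0.305), and without bezafibrate replicate 1 (0.0911), 2 (0.164) or 3 (0.0601). It was also lost with DESeq2 (0.155). PHYH, the hydroxylase that opens alpha-oxidation of phytanic acid, was at lower counts. PHYH stood at 12.8, 11.3 and 13.8 CPM in the control libraries, 14.2, 15.5 and 14.7 with ascites, 15.6, 16.03 and 15.9 with bezafibrate and 16.8, 15.6 and 19.6 with both. The drug libraries lay above the libraries of the matching medium in both comparisons, although the ascites and bezafibrate libraries ran close together. PHYH rose by 0.33 (SE 0.0943, edgeR adjusted p 0.0116) against control, and the value was 0.23 (adjusted p 0.0920) with ascites present. Without control replicate 2 the former call was lost (adjusted p 0.110), without combination replicate 2 the latter was gained (0.0462), and DESeq2 gave 0.0604 for the former.

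The remaining 8 oxidation enzymes were not called in either comparison. ACOX2, the oxidase of bile acid intermediates and branched chains, had changes of 0.52 and 0.54 with 95% intervals of -0.21 to 1.24 and -0.09 to 1.16, at mean levels of only 0.757 to 1.78 CPM. ACOX3, another branched-chain oxidase, SCP2, a sterol carrier with a thiolase form, AMACR, the racemase that prepares branched chains, and CROT, which hands shortened chains to carnitine for export, lay between -0.07 and 0.18. PECR and DECR2, reductases acting on unsaturated chains, and HACL1, the lyase of alpha-oxidation, lay between -0.16 and 0.04. In the GENCODE 29 annotation, 14.1% of the exon bases of DECR2 lie under NME4 on the same strand, and 55.0% of those of AMACR under the read-through gene C1QTNF3-AMACR. How the authors' counting divided reads between such genes is not given in the sources used here, so the values of both genes are uncertain. Same-strand genes also cover 16.3% of the exon bases of ECH1, 16.3% of those of PEX19 and, for the pseudogene TUBBP10, 15.4% of those of SCP2. The partners of ECH1 and PEX19 averaged at most 0.0566 CPM in any group. If strand was not used, the values are also uncertain for ACAA1, with 19.7% of its exon bases opposite DLEC1, and for HACL1, with 15.4% opposite BTD; DLEC1 stayed below 1 CPM on average in each group.

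Of the 3 transporters, ABCD3 responded in both media, ABCD2 was called without ascites only, and ABCD4 was not called. The higher calls are 66.7% of the transporters without ascites and 33.3% with it, beside 10.1% and 10.5% of all genes. ABCD3 (chr1:94385131-94518663), also known as PMP70, brings branched and dicarboxylic acyl chains across the peroxisomal membrane. ABCD3 stood at 149, 170.3 and 158 CPM in the control libraries, 162, 156 and 158 with ascites, 189, 184 and 175 with bezafibrate and 184, 175 and 196 with both. The drug libraries were higher than all libraries of the same medium without it, with the lowest of them, bezafibrate replicate 3 and combination replicate 2, only slightly above control replicate 2. ABCD3 rose by 0.20 (SE 0.0434, edgeR adjusted p 0.000833) and by 0.22 (SE 0.0440, adjusted p 0.000335).

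ABCD2 (chr12:39531025-39619803), a carrier of very long and polyunsaturated chains, had the largest fold change of the 34 members against control, at very low counts. ABCD2 stood at 1.02, 0.661 and 0.873 CPM in the control libraries, 1.57, 1.17 and 0.673 with ascites, 2.35, 1.78 and 2.54 with bezafibrate and 1.23, 1.95 and 1.44 with both. These values rest on 9 to 39 counts per library. The 3 bezafibrate libraries lay above the 3 controls, while ascites and combination libraries overlapped. ABCD2 rose by 1.36 (SE 0.308, edgeR adjusted p 0.00111), or 2.56-fold, against control, and the value with ascites present was 0.42 (95% interval -0.23 to 1.07, adjusted p 0.442). The difference between these responses, the interaction term, was -0.94 (SE 0.453, edgeR p 0.0453 before and 0.999 after adjustment), so a weaker response in ascites was not established. ABCD4, a relative that carries cobalamin in lysosomes, stood at 17.6 ± 0.964 CPM in control (SD, n = 3), 18.7 ± 1.41 with ascites, 16.5 ± 1.15 with bezafibrate and 16.5 ± 2.05 with both, with changes of -0.10 and -0.18 that were not called.

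Among the 12 tested peroxins, 3 were higher and 1 was lower against control, and 2 were higher with ascites present. These are 25% and 8.33% of the peroxins, beside 10.1% and 7.55% of all genes, and 16.7% beside 10.5%; the 1 lower call is near the share of all genes. The membrane insertion factor PEX19 (chr1:160276807-160285151), the soluble chaperone of peroxisomal membrane proteins, had the firmest change. PEX19 stood at 71.3, 65.1 and 68.2 CPM in the control libraries, 69.3, 70.03 and 72.1 with ascites, 90.7, 90.4 and 81.1 with bezafibrate and 94.5, 88.5 and 94.8 with both. All drug libraries lay above all others. PEX19 rose by 0.36 (SE 0.0487, edgeR adjusted p 3.11e-07) and 0.40 (SE 0.0492, adjusted p 5.34e-08). Its membrane anchor PEX3 stood at 24.99 ± 1.12 CPM in control (SD, n = 3), 24.7 ± 0.536 with ascites, 24.9 ± 0.383 with bezafibrate and 25.97 ± 2.44 with both, with changes of -0.01 and 0.07. PEX16, a membrane protein that recruits PEX3, had changes of 0.21 (edgeR adjusted p 0.172) and 0.13 (0.468), and the first passed the threshold without bezafibrate replicate 1 (0.0435).

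In the import machinery, PEX13 (chr2:61017720-61051990), a membrane protein at which loaded cargo receptors dock, was the member that rose. PEX13 stood at 48.8, 48.6 and 46.4 CPM in the control libraries, 46.9, 44.3 and 46.1 with ascites, 57.9, 54.99 and 55.8 with bezafibrate and 53.5, 54.7 and 51.8 with both. The drug libraries were above the libraries of the same medium without it. PEX13 rose by 0.23 (SE 0.0506, edgeR adjusted p 0.000782) and 0.22 (SE 0.0525, adjusted p 0.00210). Its docking partner PEX14 had changes of 0.08 and -0.15, neither of them called. PEX5, the receptor for most matrix enzymes, was the closest to a lower call. PEX5 stood at 73.9, 79.1 and 78.6 CPM in the control libraries, 75.8, 76.4 and 76.4 with ascites, 69.2, 71.6 and 71.5 with bezafibrate and 68.4, 68.9 and 74.9 with both. The drug libraries lay below the matching libraries without it in both comparisons. PEX5 values were -0.12 (SE 0.0460, edgeR adjusted p 0.0575) and -0.11 (SE 0.0472, adjusted p 0.107). PEX5 passed the threshold in the former when control replicate 1 was left out (0.0340) and in the latter without combination replicate 3 (0.0241). Under upper-quartile scaling PEX5 passed in both (0.0233 and 0.0491). In the former it also passed with library totals only (edgeR adjusted p 0.028) and in a fit of the compared groups alone (0.0395). PEX7, the receptor that brings in the thiolase, PHYH and AGPS, had changes of 0.20 and 0.08 at mean levels of 4.68 to 6.14 CPM.

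PEX10, a RING subunit of the ligase that marks receptors for recycling, was the member called lower. PEX10 stood at 49.5, 53.7 and 48.3 CPM in the control libraries, 45.99, 50.98 and 51.3 with ascites, 45.3, 45.3 and 45.6 with bezafibrate and 50.8, 50.9 and 48.5 with both. The 3 bezafibrate libraries were close together and below the controls, and the combination libraries lay among the ascites libraries. The log2 change was -0.15 (SE 0.0550, edgeR adjusted p 0.0467) against control and 0.02 (adjusted p 0.864) with ascites present, and the interaction was 0.17 (p 0.0323, adjusted p 0.999). Without control replicate 1 (adjusted p 0.0663) or 2 (0.290), or without bezafibrate replicate 1 (0.105), 2 (0.126) or 3 (0.0861), PEX10 was no longer called, nor was it with DESeq2 (0.149). In addition, 39.1% of its exon bases lie opposite RER1 in GENCODE 29, and strand use in counting is not given, so reads of the pair may be mixed; RER1 stood at 135 to 138 CPM on average in the 4 groups. PEX2, another RING subunit, had 0.16 (edgeR adjusted p 0.0806) and 0.10 (0.302). The first passed without bezafibrate replicate 3 (0.0236) and in a fit of the compared groups alone (0.0333). PEX6, an ATPase that pulls receptors out of the membrane, and PEX26, its membrane anchor, had changes between -0.22 and 0.02 that were not called.

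PEX11A, which elongates the membrane before division and is a known PPAR alpha target in rodents, was expressed at low counts. PEX11A stood at 5.25, 4.11 and 4.204 CPM in the control libraries, 3.77, 4.68 and 5.93 with ascites, 6.99, 5.22 and 7.42 with bezafibrate and 7.097, 6.11 and 5.91 with both. Bezafibrate replicate 2 lay below control replicate 1, and ascites replicate 3 lay above combination replicate 3, so both pairs of groups overlapped. PEX11A was higher by 0.51 (SE 0.165, edgeR adjusted p 0.0241) against control and had 0.42 (SE 0.167, adjusted p 0.0817) with ascites present. The former call was lost without control replicate 2 (0.115) or 3 (0.0982), without bezafibrate replicate 1 (0.103) or 3 (0.125), and with DESeq2 (0.0891). The latter was gained without ascites replicate 3 (0.0229).

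**Figure D3:**
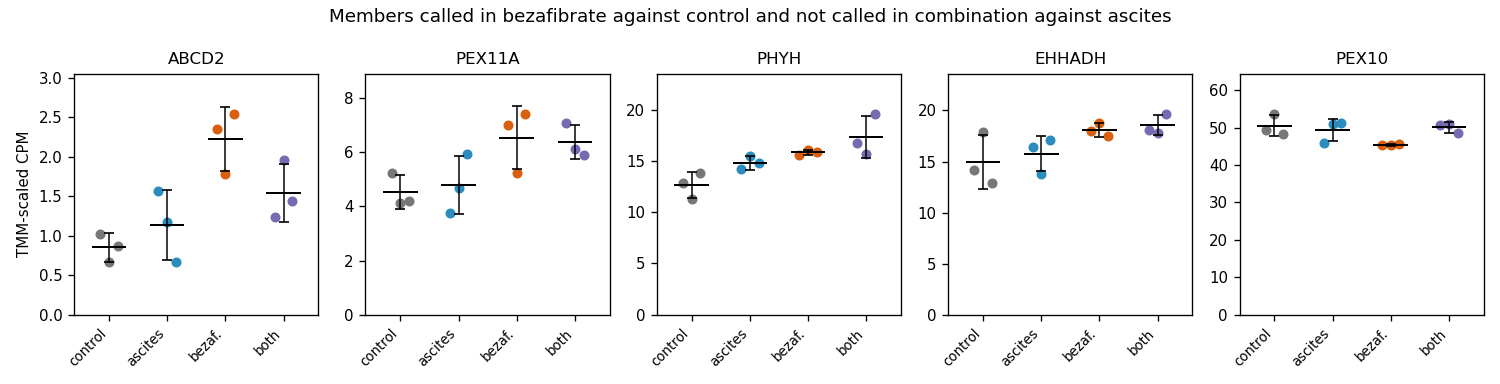
TMM-scaled CPM of the 5 genes called in bezafibrate against control and not in the combination against ascites, 1 panel per gene, with the 4 groups on the x axis. Dots are libraries, and bars give the mean and SD of 3. In ABCD2 the bezafibrate libraries (1.78 to 2.54 CPM) lie above the controls (0.661 to 1.02 CPM). In PEX11A and EHHADH bezafibrate and control libraries overlap. Combination and ascites libraries overlap in PEX11A and are apart in EHHADH.

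Ether lipid synthesis begins in the peroxisome, and 1 of its 3 genes was called higher in both media (33.3%, beside 7.95% of all genes). AGPS (chr2:177392773-177543834) encodes the synthase that puts the ether bond in place. AGPS stood at 342, 356 and 344 CPM in the control libraries, 335, 337 and 342 with ascites, 422, 405 and 399 with bezafibrate and 405, 394 and 420.2 with both. Every drug library was higher than every library without the drug. AGPS rose by 0.23 (SE 0.0308, edgeR adjusted p 1.65e-07) and 0.27 (SE 0.0312, adjusted p 1.3e-08). GNPAT, the acyltransferase that works just before AGPS, had -0.03 and -0.11, and FAR1, the reductase that supplies the fatty alcohol, 0.05 (edgeR adjusted p 0.376) and 0.09 (adjusted p 0.0995). TYSND1, the protease that trims imported oxidation enzymes, had -0.03 and -0.05. LONP2, the peroxisomal Lon protease, had 0.06 (edgeR adjusted p 0.421) and 0.11 (adjusted p 0.0978), and none of these 4 was called. SIAH1 lies opposite 18% of the exon bases of LONP2, so its values carry the same uncertainty.

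PPAR and its partner RXR are known to bind direct repeats of AGGTCA spaced by 1 base, so the promoters of the members were read for AGGTCANAGGTCA on both strands, with at most 2 mismatches outside the spacer. RefSeq promoter windows of GRCh38.p14, from 250 bases before to 50 bases after a start site, were matched by symbol to 28 of the 35 genes and gave 38 windows. No window was found for PEX2, PEX14, ACOX2, EHHADH, ACAA1, ECH1 and DECR2, so their promoters were not read. ACAA1 and ECH1 are among the genes called higher in both media. A match was present in 2 of the 38 (5.26%), 1 for AGPS and 1 for ABCD4, beside 1043 of all 35114 windows (2.97%). With at most 1 mismatch there was none among the members, beside 0.336% of all windows. The median GC content was 63% in the windows of the members and 58.7% in all. The 2 windows with a match are printed below as the 280 bases up to 30 bases past the start, with those of CAT and HSD17B4, which had the largest changes among genes called in both media; capitals mark the stretch nearest to the repeat.
AGPS, chr2:177392523-177392802, plus strand: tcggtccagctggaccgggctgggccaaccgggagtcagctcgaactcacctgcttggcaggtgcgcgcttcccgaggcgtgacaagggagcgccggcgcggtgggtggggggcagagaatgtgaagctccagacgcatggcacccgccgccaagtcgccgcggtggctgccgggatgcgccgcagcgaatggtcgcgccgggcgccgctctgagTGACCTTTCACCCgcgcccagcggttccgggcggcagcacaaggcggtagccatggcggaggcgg
ABCD4, chr14:74302905-74303184, minus strand: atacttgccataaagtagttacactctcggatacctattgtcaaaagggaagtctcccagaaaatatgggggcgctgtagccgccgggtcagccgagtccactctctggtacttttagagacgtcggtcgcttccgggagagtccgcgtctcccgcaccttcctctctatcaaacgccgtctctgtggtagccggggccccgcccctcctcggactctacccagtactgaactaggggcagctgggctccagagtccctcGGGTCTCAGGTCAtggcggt
HSD17B4, chr5:119452247-119452526, plus strand: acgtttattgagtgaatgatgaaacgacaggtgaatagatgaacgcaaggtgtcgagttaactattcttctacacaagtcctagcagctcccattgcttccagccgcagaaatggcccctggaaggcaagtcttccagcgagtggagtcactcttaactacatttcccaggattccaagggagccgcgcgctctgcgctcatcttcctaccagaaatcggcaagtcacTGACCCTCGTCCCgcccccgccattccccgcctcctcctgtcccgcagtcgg
CAT, chr11:34438684-34438963, plus strand: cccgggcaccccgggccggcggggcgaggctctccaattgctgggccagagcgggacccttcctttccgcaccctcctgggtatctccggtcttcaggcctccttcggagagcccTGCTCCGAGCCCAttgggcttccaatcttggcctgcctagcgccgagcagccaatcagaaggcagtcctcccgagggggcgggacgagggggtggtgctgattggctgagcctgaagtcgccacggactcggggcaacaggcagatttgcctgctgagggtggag
In AGPS, which rose, the stretch lies 35 to 23 bases before the start and reads as the repeat on the opposite strand, with 2 mismatches. ABCD4, which was not called, has its stretch past the start, also with 2 mismatches. The nearest stretch has 4 mismatches in HSD17B4 and 5 in CAT, so these windows hold no match by this criterion. The letters describe these windows only.

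Ascites moved none of the members past the threshold. Against control, 0 of 34 were called by edgeR, and 2 had an unadjusted p under 0.05 (PEX7, 0.32, and PHYH, 0.23, with adjusted p of 0.806 and 0.790). The combination set against bezafibrate also gave 0 calls, with 3 members at an unadjusted p under 0.05 (ACOX2, 0.67, ACOX3, 0.26, and PEX10, 0.14). Of all 12470 genes tested by edgeR, 749 and 597 had an unadjusted p under 0.05 in these comparisons. DESeq2 called no member in either comparison. Few genes of any kind were called here, 0.0882% of all tested in ascites against control and 0.128% in the combination against bezafibrate (0.0401% higher). The members' median log2 change was 0.04 and 0.02. For CAT the 95% interval of the ascites change ran from -0.09 to 0.10 against control and from -0.13 to 0.04 with the drug present. Intervals were wide for the genes with few counts, such as ACOX2, -0.08 to 1.39 against control.

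**Figure D4:**
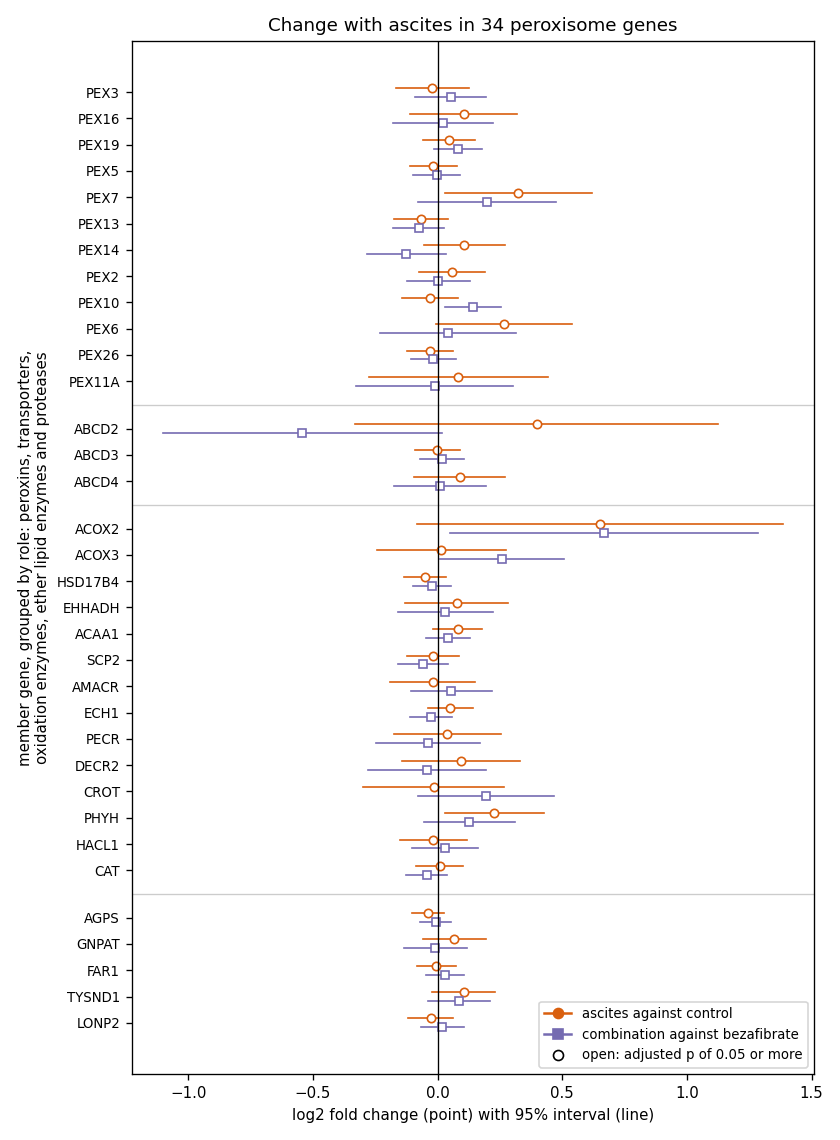
Log2 fold changes of the 34 tested genes (points) with 95% intervals (lines) on the x axis, for ascites against control (orange circles) and the combination against bezafibrate (purple squares). Genes are listed on the y axis by role. No symbol is filled, since no adjusted p was under 0.05, and the widest intervals belong to ABCD2 and ACOX2.

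The interaction of ascites and bezafibrate was called for 0 of the 34 members by edgeR and by DESeq2, and for 0% of all genes by edgeR. Unadjusted p values under 0.05 occurred in 3 members, ABCD2 (-0.94), PEX14 (-0.23) and PEX10 (0.17), and in 445 of all 12470 genes by edgeR. For the genes with the firmest response the interval of the difference was narrow: -0.18 to 0.07 for CAT, -0.09 to 0.14 for HSD17B4 and -0.20 to 0.05 for ECH1.

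Set against control, the combination raised 13 members and lowered none, beside 18.2% of all genes called, 10.3% higher and 7.96% lower. This comparison shares libraries with the others and is given beside them. The 8 genes higher in both drug comparisons were among the 13, with CAT at 0.65, HSD17B4 at 0.57, ACAA1 at 0.55, ECH1 at 0.49 and PEX19 at 0.44. PHYH was at 0.45 (SE 0.0959, edgeR adjusted p 0.000481). ACOX2 was called in this comparison alone. ACOX2 stood at 0.818, 0.661 and 0.793 CPM in the control libraries, 1.35, 0.781 and 1.41 with ascites, 0.965, 0.969 and 1.37 with bezafibrate and 1.35, 2.46 and 1.52 with both. The combination libraries lay above the controls, with combination replicate 2 the highest. ACOX2 was higher by 1.19 (SE 0.340, edgeR adjusted p 0.0105), and lost the call without control replicate 2 (0.0509) or combination replicate 2 (0.103).

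PEX7 was likewise called only against control, at 0.40 (edgeR adjusted p 0.0484). That call went without control replicate 1 (0.0975), 2 (0.148) or 3 (0.0718) and without combination replicate 1 (0.184) or 3 (0.121). PEX13, at 0.15 (edgeR adjusted p 0.0361), lost it without control replicate 1 (0.0520), 2 (0.0605) or 3 (0.149) and without combination replicate 1 (0.0824) or 2 (0.109). PEX11A, at 0.50 (edgeR adjusted p 0.0339), lost it without control replicate 2 (0.135) or 3 (0.119) or combination replicate 1 (0.166). EHHADH, at 0.30 (edgeR adjusted p 0.0284), lost it without control replicate 1 (0.127) or 3 (0.212) or combination replicate 3 (0.0698). With DESeq2 none of these calls held (adjusted p 0.197 for PEX7, 0.123 for PEX13, 0.121 for PEX11A and 0.0965 for EHHADH). Those of PEX7 and PEX13 were also lost under upper-quartile scaling (edgeR adjusted p 0.0587 and 0.0703), and under some other settings. PEX5 became lower without control replicate 1 (0.0330) or combination replicate 3 (0.00924), PEX16 higher without combination replicate 3 (0.00755), and PEX2 higher without combination replicate 1 (0.0428). PEX5 was also called lower under upper-quartile scaling (edgeR adjusted p 0.0223) and with library totals only (0.0325).

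The members were set beside the rest of the peroxisome, 51 further listed genes of which 41 were tested. VIM, an intermediate filament gene that entered this list in error, was left out; with it 1 more gene would be tested and called higher in each drug comparison. Of the 41, 9 were higher and none was lower against control, and 7 were higher and none was lower with ascites present. The higher calls are 22.0% and 17.1% of this list, beside 10.1% and 10.5% of all genes. Among the 6 higher in both were MLYCD, the malonyl-CoA decarboxylase (0.76 and 0.83), MPV17L (0.43 and 0.46), HSDL2 (0.43 and 0.46), the very long-chain acyl-CoA synthetase SLC27A2 (0.32 and 0.40), and ACBD5, a membrane protein that binds acyl-CoA (0.20 and 0.25). The median over the 41 was 0.07 and 0.04. No gene of this list was called in ascites against control or in the combination against bezafibrate.

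Mitochondrial beta-oxidation, the most similar pathway, also rose in large part. Of 19 tested genes, 11 were higher and none was lower against control (median 0.36), and 13 were higher and 1 was lower with ascites present (median 0.35). The higher calls are 57.9% and 68.4% of these genes, beside 10.1% and 10.5% of all, and the lower call is 5.26%, beside 7.29%. The gene called lower was CPT1C, a carnitine palmitoyltransferase relative of the brain, at -0.86 (SE 0.289, edgeR adjusted p 0.0341) and 0.760 to 2.03 CPM in these ascites and combination libraries. Higher in both were 11 genes, led by the carnitine carrier SLC25A20 (1.15 and 1.25) and CPT1A, which controls entry of long chains (0.97 and 0.97). The electron transfer genes ETFDH (0.63 and 0.79) and ETFA (0.66 and 0.61) followed, with the thiolase ACAA2 (0.60 and 0.64) and the subunits of the trifunctional protein HADHB (0.54 and 0.56) and HADHA (0.50 and 0.58). The acyl-CoA dehydrogenases ACADVL (0.45 and 0.45), ACADS (0.36 and 0.37) and ACADM (0.25 and 0.35) were also in this set. The oxidation enzymes of the peroxisome had medians of 0.18 and 0.20 and the peroxins of 0.12 and 0.07. The lists were chosen by hand and the differences between them were not tested.

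**Figure D5:**
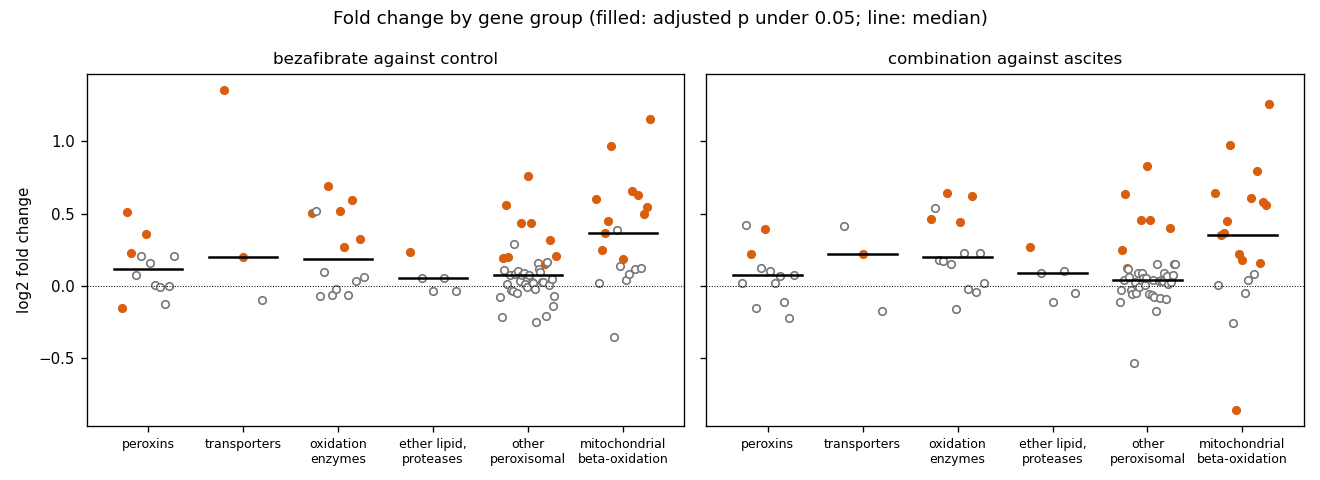
Log2 fold change (y axis) of each tested gene by group (x axis), for bezafibrate against control (left) and the combination against ascites (right). Filled dots have an adjusted p under 0.05, and black lines are medians. The medians of the mitochondrial genes (0.36 and 0.35) lie above those of each peroxisomal group.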

How the data were processed

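CAOV3 RNA was sequenced in 12 libraries, and groups and replicate numbers follow the sample titles and characteristics. Each library has a deposited table of raw counts, whole numbers by gene, made by the authors. The submitters' processing notes name Trimmomatic 0.39, STAR 2.7.9a, RSEM 1.3.3 and DESeq2 1.28.1 and the build GRCh38. The annotation, the strand setting and the step that made whole numbers are not given in the sources used here.

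Genes were kept by filterByExpr (minimum count 10, minimum total 15), which left 12470 and removed 7207. Library sizes were scaled by TMM, and CPM are counts over the scaled size. All 12 libraries entered a single quasi-likelihood fit in edgeR 4.0.16 (R 4.3.3) with 1 mean per group. Calls were made at an adjusted p under 0.05, with Benjamini-Hochberg adjustment across the tested genes. SE is the absolute log2 change over the square root of F. The fitting script was tested on simulated data. Alternatives were other scalings and filters, DESeq2 1.42.0, a replicate block, a fit of the compared groups alone, and leaving out each library. Sums with overlapping genes were added after the data were seen.

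The members and the gene lists were chosen with earlier results of these data known. Members called in a drug comparison are described by library, and others by their changes. Replicates of a group differed by more than counting error (chi-square per degree of freedom 1.44 to 4.45). Gene positions and promoters are from RefSeq GRCh38.p14 by symbol, and exon overlaps from GENCODE 29. The values of 1 gene of the wider peroxisomal list are not reported here.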

Additional observations from a re-analysis of the deposited data

How the results depend on the processing

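The number of members called stayed within 1.5 times its value under each alternative run. Against control, bezafibrate gave 10 to 12 calls with 1 library left out and 9 to 15 under the other settings. The combination gave 8 to 9 and 8 to 9 against ascites, and 9 to 13 and 9 to 13 against control, and the remaining comparisons stayed at 0. Of 34 calls over these comparisons, 25 held under every alternative. Among them were those of CAT, HSD17B4, ECH1, ACAA1, PEX19, AGPS, PEX13 and ABCD3 in both media. PEX13 lost its call only in the combination against control. Of 510 alternative values, 0 changed direction and 55 no longer passed the threshold, 33 of them with a library left out. DESeq2 called 9, 8 and 9 members. The main fit did not pair same-numbered libraries. Their deviations correlated at -0.135 to 0.061, and 1 library correlated best with its own number. With so few libraries these values cannot settle whether the numbers mark a shared day or culture. The replicate block gave 12, 8 and 12 calls and 0 in the other comparisons. It lost EHHADH against control (adjusted p 0.0658) and PEX7 in the combination (0.0553). Without combination replicate 3, the combination gave 9 calls against ascites and 13 against control. Upper-quartile scaling shifted the median of all genes by at most 0.02 and gave 11 members higher and 2 lower with bezafibrate. Of all genes called with bezafibrate, 57.2% were higher by TMM, 49.0% by upper-quartile scaling and 50.1% by library totals (with ascites present 58.9%, 49.3% and 50%). With at most 1 mismatch, 0 member promoters held the motif. AMACR summed with C1QTNF3-AMACR was not run. Sums with overlapping genes of the same strand, run for DECR2, ECH1 and PEX19, left the counts at 13, 8 and 13. The partners of ECH1 and PEX19 averaged at most 0.0566 CPM in any group. Neither DECR2 nor its partner NME4 was called in the drug comparisons (edgeR adjusted p 0.179 and 0.196 for NME4). The counts therefore had little room to change, and the sums do not bear on AMACR, SCP2 or genes on opposite strands. Low counts limit ABCD2, ACOX2, PEX7, PEX11A and PEX11G.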
